A study of Mus musculus with 3 samples.

Results

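Cyp26b1, the cytochrome P450 that hydroxylates and so inactivates retinoic acid, was examined in mouse tendon cells together with 8 other genes of retinoic acid handling and response: Rara, Rarb, Rarg, Rxra, Crabp1, Crabp2, Stra6 and Rdh10. These 9 genes are 9 of the 16621 genes listed in the data, and all 9 were found by gene ID. Cyp26b1 was chosen by its counts and FPKM in mutant against wild-type cells of these same libraries, and the others for acting in the same pathway. The mutant against wild-type values of the 9 genes are therefore given as a description, without a test.

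The cells were stem cells derived from the tail tendon of C57BL/6 mice aged 10 weeks, progenitors grown out of tendon and kept in culture. They were collected untreated at passage 4, from a confluent dish. There was 1 library from wild-type cells (WT) and there were 2 libraries from cells of mice with the ΔF508 mutation of Cftr (DF508), which removes a phenylalanine from an anion channel and is common in people with cystic fibrosis. The sources used here do not give the number of animals behind a library or say whether separate cultures were used, so the spread between the DF508 libraries may be technical. WT had no replicate. Poly(A) RNA was sequenced, and each library held between 5241826 and 5298326 estimated counts.

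Retinoic acid is made from vitamin A. Retinol enters cells from its carrier protein, through the receptor Stra6 in some tissues, is oxidised to retinaldehyde by Rdh10 and related dehydrogenases and then to retinoic acid by the Aldh1a enzymes. In the cell Crabp1 and Crabp2 bind retinoic acid, the receptors Rara, Rarb and Rarg respond to it as heterodimers with an RXR such as Rxra, and the Cyp26 enzymes break it down. In limb and skeletal development Cyp26b1 is known for keeping retinoic acid low in mesenchyme. RARs bind DNA at pairs of six-base half-sites, and the pair in the Rarb promoter is the textbook retinoic acid response element.

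The promoters are shown to set the enzyme that was high in DF508 beside the genes that carry this element. The windows are from RefSeq, build GRCm38.p6, and run from 250 bases before to 50 bases after a gene's start. They held 7 of the 9 genes, in 15 windows; Crabp2 and Rdh10 had no entry. Both strands were searched for the half-sites AGGTCA as well as AGTTCA, and also GGGTCA as well as GGTTCA, and for any of these followed after 5 bases by another of them on the same strand. Such a pair stood in 32 of 32851 windows (0.0974%), among them those of Rarb and of the related enzyme gene Cyp26a1. In the lines below capitals mark the half-sites, the Cyp26a1 pair being written on the strand opposite to the gene.
Rarb: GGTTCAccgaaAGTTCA
Cyp26a1: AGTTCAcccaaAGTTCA
The Rarb pair lies at chr14:16575513-16575529, on the minus strand like the gene, from base -53 to base -37 counted from the start. The Cyp26a1 pair lies at chr19:37697776-37697792, from base -32 to base -16, where the gene is on the plus strand. With 20 bases on either side, or up to the start, the gene strands read as follows.
Rarb: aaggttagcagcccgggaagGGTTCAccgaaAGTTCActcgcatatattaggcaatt
Cyp26a1: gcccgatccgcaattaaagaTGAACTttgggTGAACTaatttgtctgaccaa

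The Cyp26b1 window held no half-site on either strand, so its letters carry no capitals. The 250 bases before its start (chr6:84593811-84594060, minus strand) are shown because Cyp26b1 is the gene the description turns on.
Cyp26b1: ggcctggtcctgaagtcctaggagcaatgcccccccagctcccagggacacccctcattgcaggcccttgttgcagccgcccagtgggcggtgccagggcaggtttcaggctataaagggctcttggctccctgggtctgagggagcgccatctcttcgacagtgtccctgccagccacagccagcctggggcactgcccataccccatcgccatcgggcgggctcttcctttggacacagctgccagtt
A single half-site is common and stood in 43.7% of all windows, and in 6 of the 15 windows of these genes. Rarb was the 1 gene of the 7 with a pair. A match describes letters only, and elements outside the windows were not searched.

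Cyp26b1 (gene ID 232174) was higher in both DF508 libraries than in WT. It had 175 counts in WT, 421 in DF508 replicate 1 and 694 in DF508 replicate 2, all whole estimates with no sign of reads shared with another gene. Scaled to library totals these are 33.0, 80.3 and 132 CPM, counts per 1000000 counts of the library. The lowest DF508 value thus stood at 2.43 times WT, and the groups did not overlap. Such non-overlap is common with 1 WT library. WT lay outside the DF508 range for 72.8% of the 13233 genes whose mean reached 1 CPM. On the scale of FPKM, which relates fragments to gene length and library size, the levels of Cyp26b1 were 6.98, 16.98 and 27.92. The mean DF508 level was 106 ± 36.7 CPM (SD, n = 2), 3.22-fold the WT level.

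The DF508 libraries were not alike in Cyp26b1. The ratio to WT was 2.43 in replicate 1, with an exact 95% interval of 2.03 to 2.92, and 4.01 in replicate 2, with an interval of 3.39 to 4.75. These intervals, from the binomial distribution given the summed counts, cover counting error only. Replicate 2 stood at 1.65 times replicate 1 (interval 1.46 to 1.86), a log2 difference of 0.72. Among the 7482 genes whose mean reached 100 counts the SD of this log2 difference was 0.22, and 0.748% of them differed by more than Cyp26b1. On the log2 scale WT lay further from either DF508 library (1.28 and 2.00) than these lay from each other. In CPM, replicate 1 lay nearer to WT than to replicate 2. The gene was chosen by this contrast, so neither distance is a test.

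In the table of all genes, 49 of the 10959 whose mean reached 5 CPM had a larger value than Cyp26b1 for the smaller of the ratios to WT, and 95 were at least 2-fold higher in both DF508 libraries. In edgeR's model across all genes, which 7 of the 9 genes entered with enough counts, the fitted log2 fold change of Cyp26b1 was 1.64 ± 0.276 (SE). It is given here as a size, since the SE was derived from the F statistic of the fit and the gene was chosen by this contrast. Leaving out DF508 replicate 1 or 2 gave a log2 ratio of 2.00 or 1.28 in place of 1.69.

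**Figure D1:**
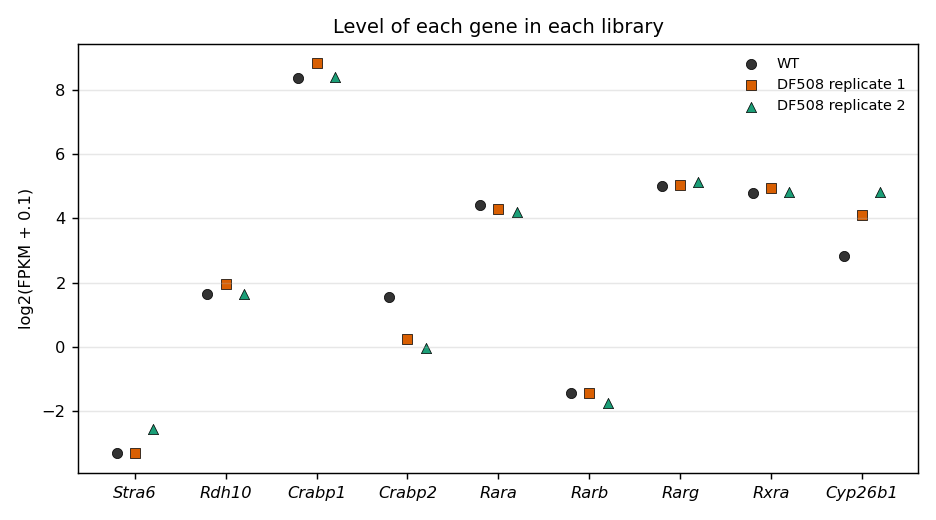
Level of each of the 9 genes in each library as log2(FPKM + 0.1), with 1 point for WT and 1 for each DF508 library. Crabp1 is the highest gene in every library, Cyp26b1 goes from 6.98 FPKM in WT to 16.98 and 27.92 FPKM in DF508, and Rarb and Stra6 lie at the bottom.

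The other Cyp26 enzymes were at or near 0. Cyp26a1, which is strongly induced by retinoic acid in many cells, had 0 counts in all 3 libraries, which allows up to 3 counts or 0.566 to 0.572 CPM in a library. Cyp26c1 had 1 count, in DF508 replicate 1. Cyp26b1 was thus the Cyp26 gene with more than 1 count in these libraries. Por, the reductase that passes electrons to microsomal P450 enzymes, had 16.22 FPKM in WT and 14.53 and 20.49 FPKM in DF508, with WT between the DF508 values. It was the 1 tested gene of the 3 in the breakdown list and did not pass (edgeR adjusted p = 0.937).

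On the side of supply, Stra6 (gene ID 20897) was at 0 counts in WT and DF508 replicate 1 and at 1 count in DF508 replicate 2, so no ratio can be given. Rdh10 (gene ID 98711), which makes retinaldehyde, had 37 counts in WT, 45 in DF508 replicate 1 and 36 in replicate 2, or 6.98, 8.59 and 6.86 CPM. The WT value of Rdh10 lay between the DF508 values. The ratios were 1.23 (interval 0.778 to 1.95) and 0.983 (0.603 to 1.6), so a change of up to about these bounds could not be detected at this depth.

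Crabp1 (gene ID 12903), a binding protein that holds retinoic acid in the cytoplasm, was the most abundant of the 9 genes per length in every library. It had 1244 counts in WT, 1696 in DF508 replicate 1 and 1277 in replicate 2, or 328, 453 and 340 FPKM. The value was high in replicate 1 alone: its ratio to WT was 1.38 (interval 1.28 to 1.48), while that of replicate 2 was 1.04 (0.958 to 1.12). Replicate 1 stood at 1.33 times replicate 2, and 4.8% of the 7482 genes differed by more between these libraries. The fitted log2 fold change of 0.23 ± 0.159 (SE) averages unlike libraries. Cyp26b1 was highest in replicate 2 and Crabp1 in replicate 1.

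Crabp2 (gene ID 12904), which carries retinoic acid to the nuclear receptors, was scarce. It had 13 counts in WT and 5 and 4 counts in DF508, or 2.80, 1.09 and 0.87 FPKM. Both DF508 values were below WT, at ratios of 0.389 (interval 0.109 to 1.16) and 0.311 (0.0738 to 1.01). Both intervals reach 1, so the lower counts lie within counting error for each library taken singly. Of the summed FPKM of both binding proteins, Crabp1 made up 99.2% in WT, 99.8% in DF508 replicate 1 and 99.7% in replicate 2.

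The receptors were close to level across the libraries. Rarg (gene ID 19411) had 476, 471 and 499 counts in WT and DF508 replicates 1 and 2, or 32.13, 32.60 and 34.62 FPKM, and its ratios to WT were 1.00 (interval 0.879 to 1.14) and 1.06 (0.932 to 1.2). The sign of the Rarg difference depended on the scaling, with log2 ratios of 0.04 on library totals and -0.003 on TMM-normalized sizes. Rxra (gene ID 20181), the shared partner, had 780, 849 and 776 counts, or 27.74, 30.53 and 27.87 FPKM, with ratios of 1.10 (0.997 to 1.21) and 1.005 (0.908 to 1.11). The intervals of Rarg and Rxra hold a ratio of 1 in both DF508 libraries.

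Rara (gene ID 19401) had 361.86, 327.31 and 306.48 estimated counts, or 21.05, 19.30 and 18.27 FPKM. Both DF508 values were below WT, with ratios of 0.913 (interval 0.784 to 1.06) and 0.854 (0.731 to 0.997). The estimates are not whole, which means that Rara shares reads with another gene or copy, so its values are uncertain. The gene length that RSEM used, a mean over a gene's transcripts weighted by their share, was 3235, 3226 and 3188 bases for Rara and 2792, 2754 and 2744 bases for Rarg. For both genes it was shorter in both DF508 libraries than in WT, and no error of these lengths is known. How many of all genes show such an order of lengths was not counted.

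Rarb (gene ID 218772), the receptor whose promoter carries the pair of half-sites shown above, was barely detected. It had 4 counts in WT, 4 in DF508 replicate 1 and 3 in replicate 2, near the limit that a count of 0 allows. The interval of its ratio to WT was 0.188 to 5.43 in replicate 1, so no difference could be seen at this depth. Of the summed FPKM of the RAR genes, Rarg made up 60.1%, 62.5% and 65.2% in WT and DF508 replicates 1 and 2, Rara 39.4%, 37.0% and 34.4%, and Rarb at most 0.518%. The sums were 53.5, 52.2 and 53.1 FPKM. Rxra made up 69.9%, 72.2% and 69.2% of the RXR sum, most of the rest being Rxrb.

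**Figure D2:**
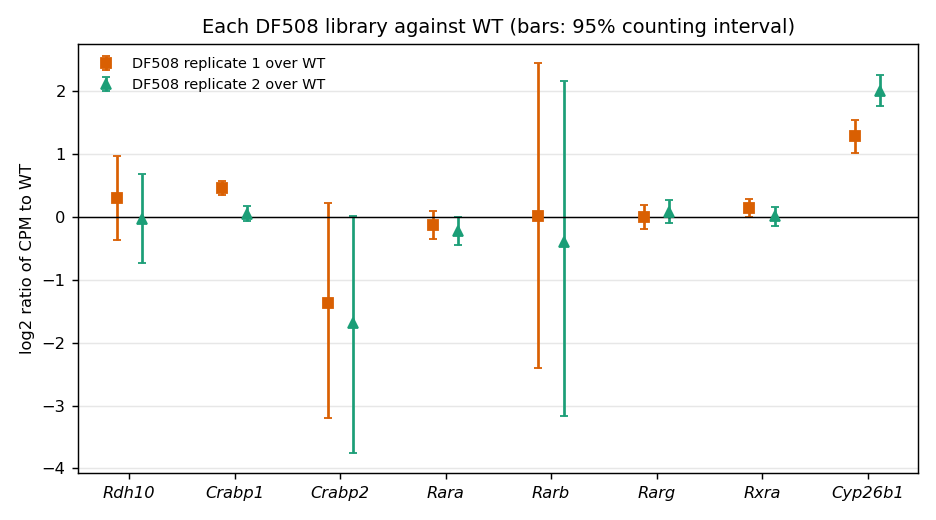
Log2 ratio of CPM to WT for each DF508 library, for the 8 genes with counts in WT. Bars are exact 95% intervals for counting error; those of Cyp26b1 lie wholly above 0 in both libraries, that of Crabp1 in replicate 1 alone, and those of Crabp2 and Rarb are wide because few reads were counted.

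Per length, the order in WT was Crabp1, Rarg, Rxra, Rara, Cyp26b1, Rdh10, Crabp2, Rarb and Stra6. The order in DF508 replicate 1 was the same. In DF508 replicate 2 Cyp26b1, at 27.92 FPKM, passed Rara and stood level with Rxra at 27.87 FPKM. In the DF508 pair Cyp26b1 (22.5 ± 7.74 FPKM, SD, n = 2) differed from neither Rara (18.8 ± 0.728) nor Rxra (29.2 ± 1.88) by more than its own SD. Of the 7 genes whose mean reached 1 CPM, WT lay outside the range of the DF508 libraries for 6, beside 72.8% of the 13233 genes at that level. It lay below both DF508 libraries for 4, beside 43.2% of those genes, and above both for 2, beside 29.6%. The 6 include Cyp26b1, chosen by this contrast, and 2 genes level with WT in a library. These were Rarg, at 1.00 times WT in replicate 1, and Rxra, at 1.005 times WT in replicate 2. By size, Cyp26b1 was at least 2-fold higher and Crabp2 at least 2-fold lower in both DF508 libraries, beside 2.24% and 0.68% of the 13233. Cyp26b1 was chosen by this contrast. The mean of Crabp2 reached 1 CPM through WT (2.45 CPM, against 0.954 and 0.762 CPM in DF508). The shares therefore do not measure how unusual either gene is. For Crabp2, at 13 counts or fewer, the log2 ratio of -1.52 became -0.94 on log2(FPKM + 1), short of 2-fold.

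The 5 genes reaching a mean of 5 CPM that lay nearest to Cyp26b1 in both log2 ratios to WT were Grin3a, Sphkap, Cd84, Scg2 and Plek. Their Euclidean distances from it, over these ratios from 3 libraries, were 0.0315, 0.056, 0.0995, 0.169 and 0.238. Grin3a encodes a glutamate receptor subunit, Scg2 a secretory granule protein, Cd84 a receptor of blood cells and Plek a protein of platelets and leukocytes. All are scarcer than Cyp26b1, with 11 to 30 counts in WT and 44 to 109 in DF508 replicate 2, and Cd84 and Plek share reads.

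Levels of the markers of other cells are set beside these values. All 15 myeloid markers, among them Csf1r, Adgre1 and Ptprc, were highest in DF508 replicate 2, the library where Cyp26b1 was highest, and 13 of 15 were above WT in both DF508 libraries, beside 43.2% of all genes with a mean of 1 CPM or more. The other 2, Ptprc and Cd52, were below WT in replicate 1. Their summed level was 102 CPM in WT, 161 in DF508 replicate 1 and 760 in replicate 2. Replicate 2 stood at 2.58 to 14 times replicate 1 for these markers, with a median of 4.89, against 1.65 for Cyp26b1. The sum over 9 smooth muscle and pericyte markers was 1112, 1950 and 1921 CPM, and 6 of the 9 were above WT in both DF508 libraries, beside the same 43.2%, while Pdgfrb was below WT in both and Mcam and Notch3 in replicate 2. The part of these cells in the Cyp26b1 values was not tested, and in bulk RNA a change in the number of cells of a type and a change in RNA per cell cannot be told apart.

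All 11 tendon markers were listed in every library, with summed levels of 45490 to 48770 CPM, although the tendon transcription factor Scx had just 11 to 16 counts. The markers at 0 in all libraries were 4 of 6 endothelial, 4 of 7 epithelial and keratinocyte, 3 of 6 skeletal muscle and 4 of 5 adipocyte genes, with summed levels of at most 14.7, 1.72, 2.99 and 9.06 CPM.

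**Figure D3:**
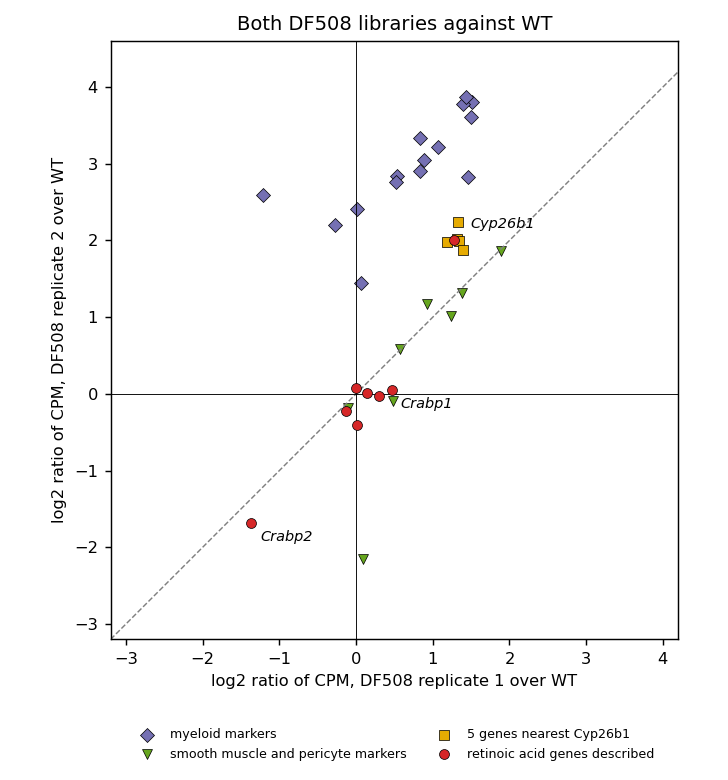
Log2 ratio of CPM to WT in DF508 replicate 1 (x axis) and replicate 2 (y axis) for the retinoic acid genes, the 5 genes nearest to Cyp26b1 and the myeloid and the smooth muscle and pericyte markers, where counts were above 0 in all 3 libraries. Both axes share the WT library. Points above the dashed line of equal ratios are higher in replicate 2, as are all 15 myeloid markers and, by 0.72, Cyp26b1.

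To place Cyp26b1 among the rest of the pathway, 89 other genes of retinoid handling and response were taken by known role, in 6 lists, a gene in more than 1 list being counted once. Of these, 79 were listed in some library and 68 had enough counts to be tested. None of the 68 rose, 2 fell and 66 did not pass (edgeR quasi-likelihood test, Benjamini-Hochberg adjustment over all genes), beside 0.489% of all genes that rose and 0.9% that fell. In either direction 2 of 68 were thus called, beside 1.39% of all 12888 genes tested, at an adjusted p threshold of 0.05. At an unadjusted p under 0.05 there were 11 of the 68 (16.2%), beside 11.9% of all genes tested. The median log2 fold change was 0.02, against 0.01 over all genes tested.

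Both genes that fell came from the list of genes known to be induced by retinoic acid in some cells. Of its 28 genes 21 were tested, 11 with a positive and 10 with a negative fold change. In this list 2 of 21 were called (9.52%, beside 1.39% of all genes tested). At an unadjusted p under 0.05 there were 4 (19.0%, beside 11.9%). The list was chosen with earlier results of these data known. Btg2, an antiproliferative gene that p53 and growth signals also induce, had 370 CPM in WT and 228 and 197 CPM in DF508. Its mean in DF508 was 1.74-fold lower on library totals, and the fitted log2 fold change, on TMM-normalized sizes, was -0.84 ± 0.114 (SE, edgeR adjusted p = 0.0139). The call was lost in 4 of 7 alternative fits (adjusted p = 0.00109 to 0.662 over the edgeR, DESeq2 and limma alternatives). Bhlhe40, a repressor of the circadian clock that low oxygen also induces, had 131 CPM in WT and 83.2 and 81.4 CPM in DF508. Its mean was 1.59-fold lower on library totals, with a fitted log2 fold change of -0.71 ± 0.104 (SE, edgeR adjusted p = 0.0198). This call was lost in 5 of the 7 (adjusted p = 0.0153 to 0.662 over the same alternatives), DESeq2's Wald test among them. Both genes were lower in 2 of 2 DF508 libraries, as were 29.6% of all genes whose mean reached 1 CPM. Genes called lower would mostly show this, so it adds no support to the calls. The median over the list's log2 fold changes was 0.03.

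In the list of retinoic acid synthesis 15 of 20 genes were tested and 0 passed, with a median log2 fold change of -0.17. At an unadjusted p under 0.05 there was 1 gene (6.67%, beside 11.9% of all genes tested). The highest per length were Dhrs3, which returns retinaldehyde to retinol (59.51 FPKM in WT, 48.66 and 57.31 in DF508), Adh5 (33.93, 31.67 and 28.49 FPKM) and Rdh11 (14.64, 14.43 and 12.46 FPKM). For these 3 genes both DF508 values were below WT, as were those of 29.6% of all genes whose mean reached 1 CPM. None of the 3 passed (edgeR adjusted p = 0.482, 0.597 and 0.823 for Dhrs3, Adh5 and Rdh11). The counting intervals of their ratios to WT held 1, except for Dhrs3 in replicate 1 (0.676 to 0.887). The Aldh1a enzymes, which make retinoic acid itself and are named for that role after their values were seen, were low. Aldh1a1 had 3.45, 1.98 and 2.07 FPKM and Aldh1a3 3.30, 2.83 and 2.00 FPKM in WT and DF508 replicates 1 and 2. Their log2 fold changes were -0.81 ± 0.414 and -0.49 ± 0.319 (SE), with edgeR adjusted p = 0.493 and 0.62. Aldh1a2 had 5, 9 and 2 counts and was not tested.

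Of 11 genes of retinoid uptake, storage and transport 5 were tested and 0 passed. At an unadjusted p under 0.05 there were 2 of the 5, beside 11.9% of all genes tested. Lrp1, a large endocytic receptor, had 291 FPKM in WT and 244 and 239 FPKM in DF508 (log2 fold change -0.31 ± 0.0734 SE, edgeR adjusted p = 0.0982). Fabp5, which carries retinoic acid to another nuclear receptor, Ppard, had 7.74 FPKM in WT and 14.92 and 12.08 FPKM in DF508 (log2 fold change 0.79 ± 0.297 SE, edgeR adjusted p = 0.323). Lpl, which shares reads, had 34.86, 26.79 and 43.97 FPKM, with WT between the DF508 libraries. Lrp1 was thus lower and Fabp5 higher than WT in both DF508 libraries, with neither past the threshold. Of all genes whose mean reached 1 CPM, 29.6% were below WT in both DF508 libraries and 43.2% above it in both.

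Among the other RXR genes and RXR partners 13 of 16 were tested and 0 passed. At an unadjusted p under 0.05 there was 1 gene (7.69%, beside 11.9% of all genes tested). The highest per length were the thyroid hormone receptor Thra (54.64, 58.14 and 55.60 FPKM), the liver X receptor Nr1h2 (39.86, 35.90 and 37.61 FPKM) and the orphan receptor Nr4a1 (35.38, 34.04 and 42.94 FPKM). All 16 receptor coregulators were tested and 0 passed, with 3 at an unadjusted p under 0.05 (18.8%, beside 11.9% of all genes tested). The histone deacetylase Hdac3 (51.50, 52.54 and 51.05 FPKM) and its partner Tbl1x (43.52, 44.83 and 44.52 FPKM) were the highest. The corepressor genes Hdac3 and Tbl1x were among the most level of the genes named here, with log2 fold changes of -0.04 and -0.01.

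**Figure D4:**
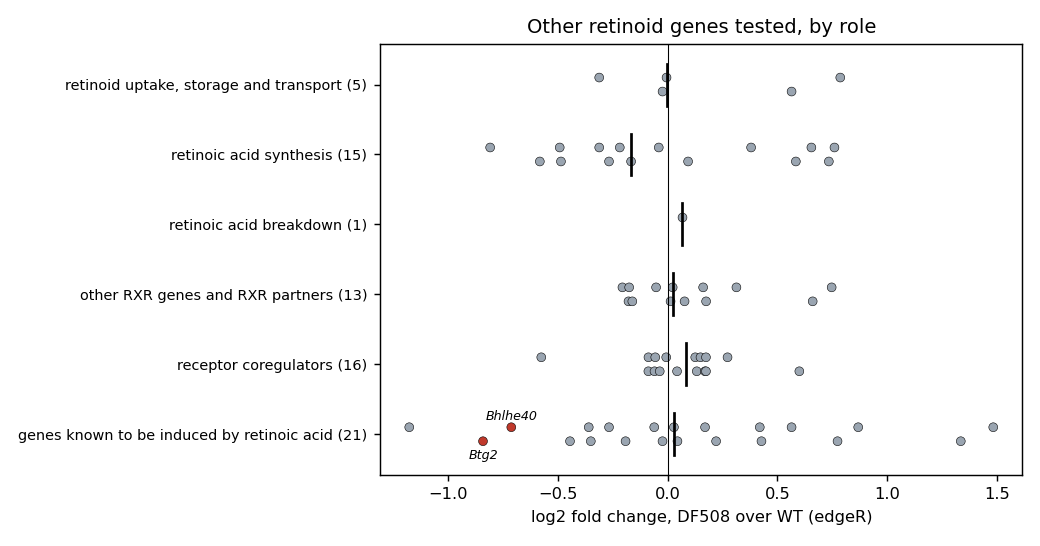
Log2 fold change of DF508 over WT from edgeR (x axis) for the tested genes of the 6 lists, 1 point a gene, with the number tested in parentheses. Black bars are medians; the 2 red points, Btg2 and Bhlhe40, are the genes past the threshold, both lower in DF508.

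There were 31 genes with the pair of half-sites in a promoter window. Of these 8 were listed in any library (25.8%, beside 47.8% of all genes with a window) and 3 had enough counts to be tested (9.68%, beside 37.8%), too few to set a count of calls against that of all genes. The highest of them was Blvrb, a biliverdin reductase named after its values were seen, with 33.44 FPKM in WT and 38.80 and 50.54 FPKM in DF508. Cyp26a1 and Rarb, whose pairs are printed above, thus had 0 and at most 4 counts, in libraries where Cyp26b1 had 175 to 694.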

How the data were processed

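Per the submitters' processing notes, reads were processed with Bowtie and RSEM on mm9; the sources used here name no version, annotation release or use of strand. Per the file headers, each library's table holds the deposited expected count (an RSEM estimate, not normalized), the deposited FPKM (scaled by the authors to gene length and library size) and the gene length that RSEM used. Genes absent from a table were set to 0, and 79.4% to 79.8% of the estimates were whole within 0.005. Of 16621 gene IDs 16579 matched symbols in a RefSeq table of GRCm38.p6.

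CPM used library totals. Genotype was tested with edgeR's quasi-likelihood test on rounded counts (TMM, filterByExpr, Benjamini-Hochberg) over 12888 genes, with 1 residual and 7.72 prior degrees of freedom, the WT library being assumed to vary like the DF508 pair. Each SE is the absolute log2 fold change divided by the square root of that test's F statistic. Counts were also simulated with 200 of the 12888 genes changed. Of these 34% were called when changed 2-fold and 87.5% when changed 4-fold, and 0 unchanged genes were called. These shares hold for counts drawn under a model, and the shares called do not cover scarcer genes such as Crabp2. They do not give the rate of false or missed calls in the real libraries, where WT had no replicate. The genes and lists were chosen with earlier results of these data known. Named are the 9 genes, list genes past the threshold or else the 3 highest by mean FPKM, and the 5 genes most like Cyp26b1; 1 gene under this rule is not reported here. Versions were edgeR 4.0.16, DESeq2 1.42.0 and limma 3.58.1 in R 4.3.3. Since no molecular identifiers are described, reads are not independent molecules, and the intervals and floors hold for counting error alone.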

Additional observations from a re-analysis of the deposited data

How the results depend on the processing

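The log2 ratio of Cyp26b1 kept its sign under all 7 alternatives. It ran from 1.28 to 2.00 when a DF508 library was left out, which are the ratios of the single libraries. It ran from 1.56 to 1.69 under TMM sizes, DESeq2 size factors and FPKM with a pseudocount of 0, 0.1 or 1. The gene was chosen by this contrast, so the kept sign is not support for a difference. Rarg changed sign under 2 of 7 alternatives and Rarb and Rdh10 under 1 each, and Crabp2 went from -1.52 to -0.94 on log2(FPKM + 1). The number of genes called was 179 and stayed within 1.5 times of that with DESeq2 size factors (187) and limma-voom (189). DESeq2's Wald test called 65 genes. The calls fell to 0 in edgeR without a filter and in limma on log2(FPKM + 1) or log2(FPKM + 0.1) for genes whose mean FPKM reached 1, or on log2(FPKM + 1) unfiltered, where 1123, 1145, 1159 and 1615 genes had an unadjusted p under 0.05. Of the other pathway genes, 2 were called, 1 by the Wald test (Btg2) and 0 in those 4 fits, with 4, 7, 7 and 11 at an unadjusted p under 0.05. The cause was not tested. Of genes at least 2-fold from WT there were 386, and 743 to 911 with 1 DF508 library left out, where fewer libraries have to pass, and 124 among genes whose mean reached 5 CPM, where fewer genes enter. Leaving out a DF508 library leaves no residual degree of freedom, so the tests were not run that way. No paired analysis was possible because there was 1 WT library beside 2 DF508 libraries. Depth limits Rarb, Crabp2 and Stra6, with 13 counts or fewer.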
